A study of Mus musculus with 4 samples.

Results

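Clusters of BRG1/BRM-bound DNA in KCl-treated mouse cortical neurons are described here. Enriched intervals, called islands, of the KCl library were joined where the gap to the next was at most 12.5 kb, and joined stretches of at least 3 islands were kept as stitched regions. The rule gave 461 regions out of 17664 units, the others being 2200 pairs of islands and 15003 islands that stood alone. The regions held 1563 of the 20966 KCl islands, 7.45% (95% exact interval 7.10 to 7.82). The members were thus chosen by the KCl island calls, and their numbers, widths and folds in that library are descriptions with no test.

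The neurons were wild-type primary cultures from the cortex of E16.5 mouse embryos, used after 6 days in vitro. Chromatin was immunoprecipitated (IP) with the J1 antibody, which recognises BRG1 and BRM, either at the basal KCl level or after 1 h in 50 mM KCl, a treatment that depolarizes neurons. For depolarization the cultures had received 1 µM TTX and 100 µM APV on day 5, which block spontaneous firing and NMDA receptors; whether the basal cultures got them as well is not stated. There was 1 IP library and 1 input library per condition, 4 in all, so no difference between conditions has a replicate check, and the labels name no embryos or cell makeup. The labelled cell type could not be checked by expression in ChIP data. The lists give reads within islands and no library totals.

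BRG1 (Smarca4) and BRM (Smarca2) are the alternative ATPases of the BAF complex, the mammalian SWI/SNF remodeller, which uses ATP to move or evict nucleosomes. Neurons carry a version of BAF with neuron-specific subunits, and its assembly involves miR-9, which lowers the progenitor subunit BAF53a. Enhancers in close clusters are often found around genes that define a cell's identity. In the developing cortex these include transcription factors such as Tbr1 and Fezf2, which set layer fates, while Fos-, Egr- and Npas4-type factors are induced within minutes of depolarization.

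Sequences are shown for RNAs and promoters inside the regions because the largest region and 2 others surround the genes of miR-9, and because the promoters show what lies under islands at cortical, tubulin and activity-regulated genes. All are from RefSeq for GRCm38.p6, the build of the files (mm10). Seeds, bases 2 to 8, are in capitals in the microRNAs. The mature miR-9 pair is the same at all 3 loci, and miR-125b, another brain-rich microRNA, lies in an island of the region near Usp25 of rank 16.
miR-9-5p: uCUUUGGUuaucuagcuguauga
miR-9-3p: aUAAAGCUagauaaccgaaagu
miR-125b-5p: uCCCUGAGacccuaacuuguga
The promoters run from 250 bases before to 50 after an annotated start, 5′ to 3′ on the gene's strand. Capitals mark TGANTCA (the AP-1 site) in Zeb2 and Dclk1, CCGGAAG (an ETS site) in Dclk1 and Pou3f3, CAGATG (a neuronal E box) in Neurod2, and TGACGTCA (the CRE) in Tubb2a. In Dclk1 the ETS site is on the other strand and reads CTTCCGG. The printed Dclk1 start is one that lies inside the annotated gene, away from both of its ends. The Npas4 promoter held none of the marked words. The CRE core (TGACG) was not marked where it stands outside a full CRE, and the Npas4 and Neurod2 promoters hold it. The Tubb2a promoter was chosen after its motif was seen.
Zeb2 promoter (chr2:45110228-45110527, minus strand): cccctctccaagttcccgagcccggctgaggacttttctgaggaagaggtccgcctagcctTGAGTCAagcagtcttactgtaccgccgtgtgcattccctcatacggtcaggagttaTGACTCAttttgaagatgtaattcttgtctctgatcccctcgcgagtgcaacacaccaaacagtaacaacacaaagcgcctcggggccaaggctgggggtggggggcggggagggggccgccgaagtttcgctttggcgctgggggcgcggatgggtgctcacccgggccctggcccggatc
Pou3f3 promoter (chr1:42695518-42695817, plus strand): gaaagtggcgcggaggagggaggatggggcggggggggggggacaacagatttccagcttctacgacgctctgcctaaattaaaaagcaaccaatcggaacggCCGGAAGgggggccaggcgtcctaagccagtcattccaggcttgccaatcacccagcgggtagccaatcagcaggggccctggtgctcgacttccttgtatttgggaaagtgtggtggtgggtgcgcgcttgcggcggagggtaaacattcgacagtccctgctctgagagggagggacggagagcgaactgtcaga
Neurod2 promoter (chr11:98329596-98329895, minus strand): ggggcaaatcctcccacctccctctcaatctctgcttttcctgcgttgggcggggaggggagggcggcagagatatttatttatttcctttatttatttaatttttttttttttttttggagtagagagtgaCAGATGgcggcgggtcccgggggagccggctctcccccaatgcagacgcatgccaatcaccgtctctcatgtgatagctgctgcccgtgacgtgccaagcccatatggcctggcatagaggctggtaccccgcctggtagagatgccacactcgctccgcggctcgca
Tubb2a promoter (chr13:34077959-34078258, minus strand): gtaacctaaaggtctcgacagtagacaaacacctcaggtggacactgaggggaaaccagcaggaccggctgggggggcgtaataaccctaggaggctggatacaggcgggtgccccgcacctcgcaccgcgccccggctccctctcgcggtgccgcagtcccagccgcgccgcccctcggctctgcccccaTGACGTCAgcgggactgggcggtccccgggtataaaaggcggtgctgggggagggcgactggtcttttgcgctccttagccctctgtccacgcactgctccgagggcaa
Dclk1 promoter (chr3:55461478-55461777, plus strand): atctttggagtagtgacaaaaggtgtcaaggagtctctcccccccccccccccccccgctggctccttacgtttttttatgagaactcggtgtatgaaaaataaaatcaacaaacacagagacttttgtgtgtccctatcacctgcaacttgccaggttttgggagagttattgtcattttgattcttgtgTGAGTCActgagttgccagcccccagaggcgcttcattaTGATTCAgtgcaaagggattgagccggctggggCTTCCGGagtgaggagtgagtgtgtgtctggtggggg
Npas4 promoter (chr19:4989922-4990221, minus strand): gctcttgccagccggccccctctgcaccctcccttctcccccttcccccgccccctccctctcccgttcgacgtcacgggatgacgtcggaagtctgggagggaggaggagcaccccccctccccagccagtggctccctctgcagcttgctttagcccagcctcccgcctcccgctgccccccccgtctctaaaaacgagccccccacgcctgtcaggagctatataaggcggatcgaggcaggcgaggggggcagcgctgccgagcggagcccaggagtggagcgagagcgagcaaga

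Most regions were small. Of the 461, 341 held 3 islands, 85 held 4 and 35 held between 5 and 9. Their spans ran from 5200 to 88400 bp with a median of 19800 bp, and islands covered a median of 6400 bp of each. Together they spanned 9.91 Mb, of which islands covered 3.51 Mb, or 35.4%. The 1102 gaps inside them had a median of 5600 bp, and 20.2% were 2000 bp or shorter.

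Read counts in a region ran from 103 to 1706 in the IP, median 218, and from 8 to 576 in the control, median 59. The fold of a region was the ratio of its summed IP to control reads divided by 1.59, the library constant in the authors' own folds. It ran from 1.44 to 9.74, with a median of 2.30 and quartiles of 1.95 and 2.85. The islands were called for enrichment over a control, so intervals above 1 are favoured by their choice. Each of the 461 folds had a 95% exact interval above 1. In 310 regions every single island did so too. Of all 1563 stitched islands 88.5% did, beside 86.4% of all KCl islands. Enrichment of single islands was close to that outside the regions, with median folds of 2.36 in stitched regions, 2.40 in pairs and 2.40 in lone islands. A deposited fold of at least 2 was reached by 66.2% of stitched islands, beside 66.6% of all.

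Wide islands were more frequent in the regions. An island of 5 kb or more made up 5.31% of stitched islands (4.25 to 6.54), beside 2.96% of all KCl islands, and 64 regions held one. The share was 3.57% (3.04 to 4.16) in pairs and 2.53% in lone islands. A broad stretch of signal that the caller cuts into several islands, and separate sites close together, cannot be told apart in these lists. The rule's threshold fell between 3 and 2 islands. Regions of exactly 3 islands had a median span of 18000 bp, 200 IP reads and a fold of 2.32, and pairs had 9600 bp, 127 IP reads and a fold of 2.34.

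Size was measured as the IP reads in excess of the control reads scaled by the library constant. The excess ran from 53.2 to 907 reads with a median of 124, and 57 regions exceeded 200. The first 10 regions held 7.91% of the summed excess and the first 50 held 22.5%. In the median region the strongest island gave 43.0% of the excess.

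**Figure D1:**
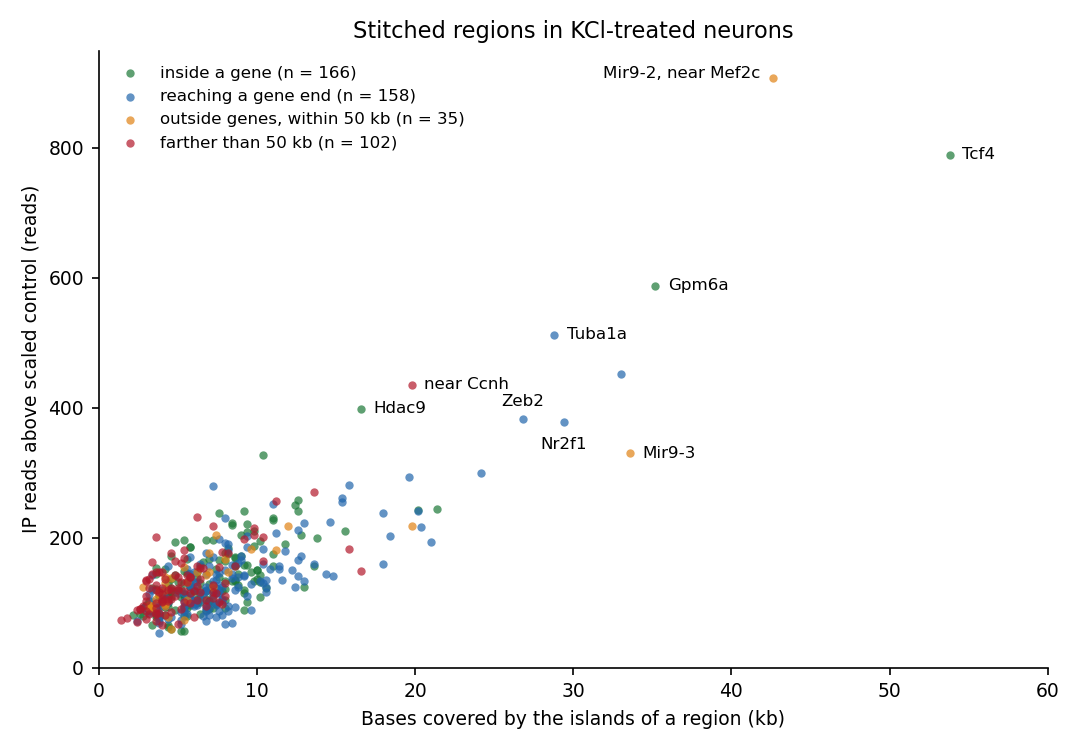
Excess of IP over scaled control reads (vertical axis, reads) against the bases covered by islands (horizontal axis, kb) in each of the 461 regions of the single KCl IP library, coloured by position relative to protein-coding genes. Named regions are among the 10 with the largest excess and stand apart from a dense group near the median of 124 reads and 6400 bp.

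The largest region lay beside Mef2c, which encodes an activity-regulated MADS-box transcription factor, at chr13:83706601-83764400, outside any protein-coding gene and 39.5 kb from that gene's nearest end. It had 3 islands, 1644 IP reads and 463 control reads, a fold of 2.23 (95% interval 2.01 to 2.48) and an excess of 907 reads. One island of 38600 bp held most of it, 90.2% of the excess, with 1504 IP and 431 control reads and a fold of 2.19 (1.97 to 2.45). That island contained the hairpin of Mir9-2 at chr13:83738814-83738885 and its host long non-coding RNA C130071C03Rik. A region of 4 islands at chr13:83654401-83675800 reached the end of Mef2c with 432 IP and 130 control reads (2.09-fold). A region of 3 islands inside Mef2c, at chr13:83553401-83575200, had 353 IP and 123 control reads (1.80-fold). The Mef2c and Mir9-2 neighbourhood thus held 3 of the 461 regions.

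The other copies of the miR-9 gene lay in regions as well. The region around Mir9-3, whose nearest protein-coding gene end is that of Polg, was at chr7:79498401-79549200 and ranked 10 by excess. It had 7 islands, 919 IP and 370 control reads, and a fold of 1.56 (1.38 to 1.76). The Mir9-3 hairpin (chr7:79505264-79505353) lay in an island with 83 IP and 27 control reads, a fold of 1.93 (1.24 to 3.10), within the host RNA Mir9-3hg. The region around Mir9-1, nearest to Rhbg, was at chr3:88201401-88227000 and ranked 39 with 3 islands, 583 IP and 229 control reads and a fold of 1.60 (1.37 to 1.87). The Mir9-1 hairpin (chr3:88215598-88215686) lay in a gap, 1115 bp from the nearest island, within the long non-coding RNA Gm3764. The miR-9 loci were picked out after their values were seen. Of 1005 annotated microRNA hairpins, 18 (1.79%) lay in stitched spans, spread over 13 regions. In islands of the regions lay 12, beside 67 in any KCl island. The 18 include opposite-strand entries at the Mir9-2 and Mir9-1 loci. Mir125b-2 has mature entries only and is not in these counts.

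**Figure D2:**
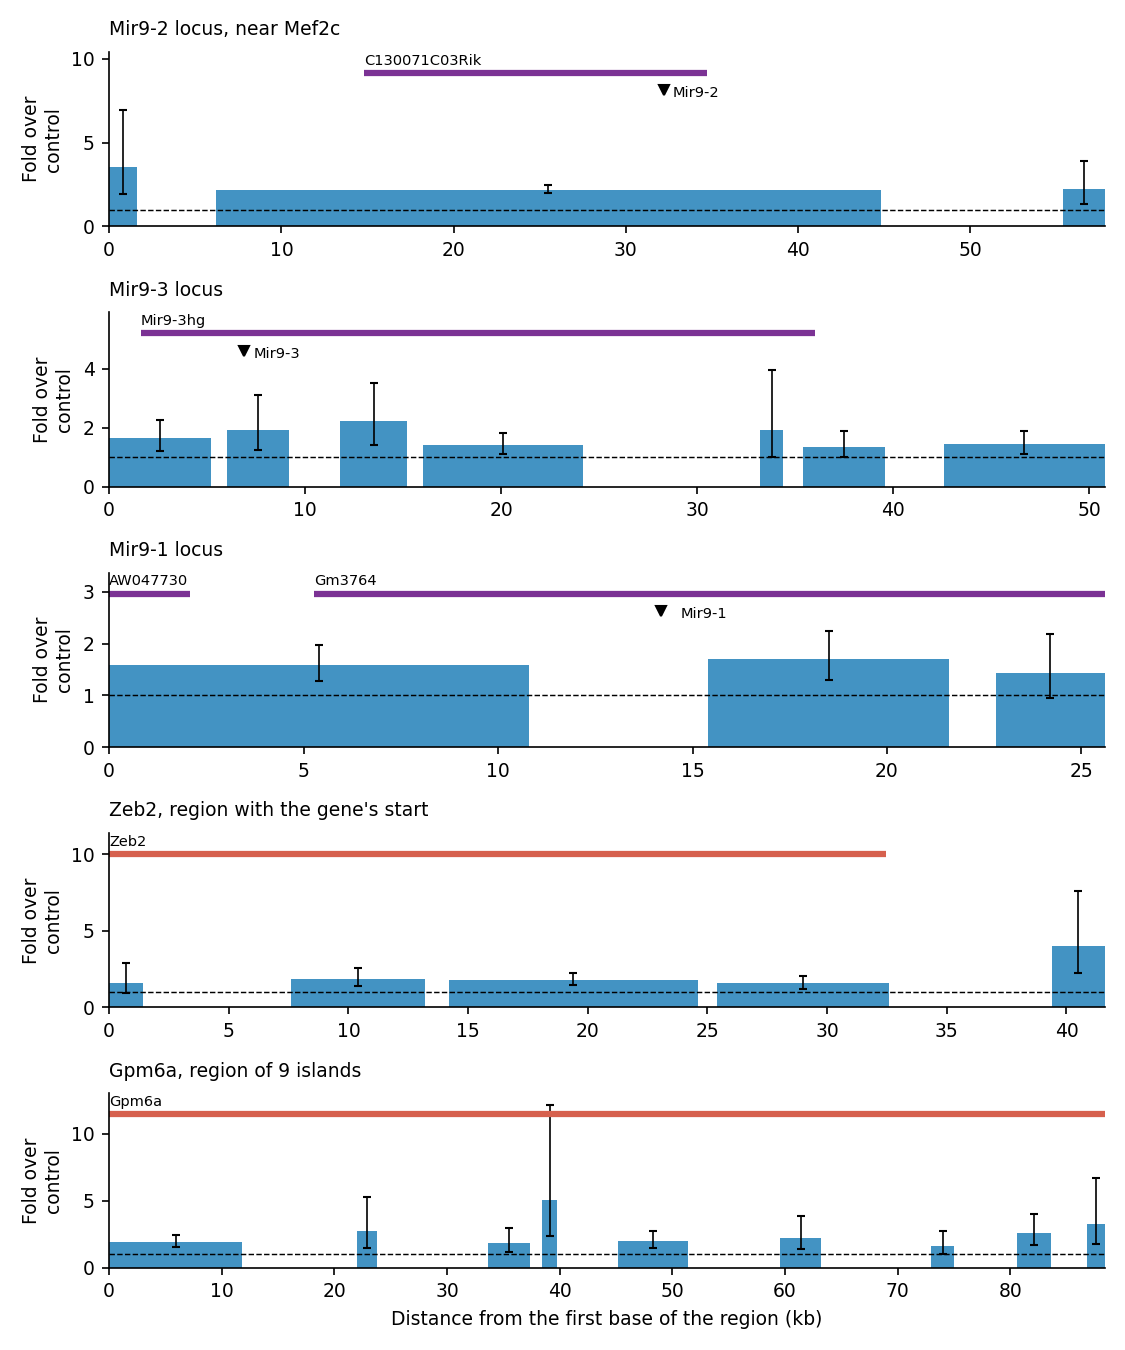
Islands (blue bars) in 5 regions by distance from the region's first base (kb), with fold over control on the vertical axis, which starts at 0, and 95% exact intervals as black lines. Named protein-coding genes are red, named long non-coding RNAs purple and miR-9 hairpins black triangles, and the dashed line is a fold of 1; the Mir9-2 hairpin sits within the 38600-bp island and Mir9-1 in a gap.

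The second region by excess was inside Tcf4 on chromosome 18, the gene of a basic helix-loop-helix factor that pairs with proneural factors. It had 8 islands covering 53800 bp, 1706 IP and 576 control reads and a fold of 1.86 (1.69 to 2.05). Gpm6a encodes a neuronal membrane glycoprotein of growing neurites and held 2 regions. Its region of 9 islands, the most in any region, was at chr8:54953001-55041400 with 1089 IP and 315 control reads (2.17-fold, 1.91 to 2.47). Its other region, of 7 islands and rank 11, at chr8:54856401-54895400, had 475 IP and 93 control reads and a higher fold of 3.21 (2.56 to 4.05). The intervals of the pair did not overlap, but they cover counting error only, and the difference was not tested.

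The region at the α-tubulin genes Tuba1a and Tuba1b (chr15:98932801-98995800) had 6 islands, 1070 IP and 350 control reads and a fold of 1.92 (1.70 to 2.17). Zeb2 encodes a zinc-finger homeobox repressor and held 2 regions. The one with its start, at chr2:45085001-45126600, had 5 islands, 839 IP and 286 control reads and a fold of 1.84 (1.61 to 2.11). The other, inside the gene at chr2:45023201-45063000, had 6 islands, 521 IP and 175 control reads and a fold of 1.87 (1.57 to 2.23). Nr2f1 encodes an orphan nuclear receptor that patterns cortical areas, and its region of 5 islands at chr13:78161201-78212000 had 769 IP and 245 control reads (1.97-fold, 1.71 to 2.29). Hdac9, a class IIa histone deacetylase gene, held a region of 5 islands at chr12:34481601-34529600 with 647 IP and 156 control reads (2.60-fold, 2.18 to 3.12). One of the 10 was far from any protein-coding gene: the region whose nearest gene was Ccnh (chr13:84748401-84785200) lay 404 kb from it and had 817 IP and 240 control reads (2.14-fold), within the long non-coding RNA Gm34196. The fold of the first 10 regions ran from 1.56 to 2.60.

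Regions overlapped 396 of 21887 protein-coding genes, 1.81%. One region over the nested Pcdhg genes on chromosome 18, which encode clustered protocadherins and share most of their span, gave 24 of these, and 372 were left without it. Across 16 gene lists with 459 genes, 39 genes (8.50%, 6.11 to 11.4) lay under a region. The lists were drawn up with earlier results of these data known, so their counts are descriptions.

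Cortical projection neuron identity factors had the largest count: 19 of 44 lay under a region, 43.2% (28.3 to 59.0), beside 1.81% of all genes. An island of any kind was in the body of 41 of the 44 (93.2%), beside 31.1% of all genes, and the genes' median length was 92.1 kb, beside 17.2 kb. Among the 19 genes were Tcf4, Zeb2, Nr2f1, Pou3f3, Myt1l, Nfix, Bcl11a, Mef2c, Pou3f2, Zbtb18, Rbfox1, Nfib, Fezf2, Tbr1, Lhx2, Neurod2, Celf2 and Nfia. Their 21 regions made up 4 of the first 10 by excess, 11 of the first 50 and 10 of the other 411.

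The POU-domain genes Pou3f3 and Pou3f2, which act in upper-layer neurons, had 732 IP reads beside 271 control reads (1.70-fold, chr1:42678001-42713400) and 533 beside 199 (1.68-fold, chr4:22476601-22508800). Myt1l, a repressor of non-neuronal genes, had 554 beside 184 at one of its ends (1.89-fold, chr12:29526001-29548400). The nuclear factor I genes Nfix, Nfib and Nfia had 602 beside 225 reads (1.68-fold), 481 beside 202 (1.5-fold) and 195 beside 62 (1.98-fold). Nfix and Nfib thus lay below the lower quartile of fold with reads far above the median region, while the Nfia region had fewer reads than the median region. Bcl11a and Zbtb18, zinc-finger genes of cortical neurons, had 580 beside 213 reads (1.71-fold) and 526 beside 203 (1.63-fold). The layer-fate genes Fezf2 and Tbr1 had smaller regions with 257 beside 71 reads (2.27-fold, chr14:12324201-12342400) and 241 beside 61 (2.48-fold, chr2:61803601-61820000). Lhx2, a LIM-homeobox gene, had 306 beside 114 (1.69-fold), and Neurod2, a proneural gene of excitatory neurons, 218 beside 64 (2.14-fold). The genes of the RNA-binding proteins Rbfox1 and Celf2 had 256 beside 56 (2.87-fold) and 219 beside 71 (1.94-fold). Rbfox1 had the highest fold of the 21 regions and Nfib the lowest.

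As a group the 21 regions were broad and of modest fold. Their median fold was 1.86, beside 2.33 in the other 440 regions, and their median excess was 216 reads, beside 123. Islands covered a median of 18000 bp of each, beside 6400 bp, which was 62.4% of the span, beside 33.2%. An island of 5 kb or more was in 14 of 21 (66.7%), beside 11.4% of the others, and 14 of 21 had one at a gene end, beside 33.6%. Control reads per kb of island were 10.5, beside 9.40. When only islands with a deposited fold of at least 2 were stitched, 3 of the 44 genes (Rbfox1, Zeb2 and Tbr1; 6.82%) remained under a region, beside 0.466% of all genes. With a gap of 5000 bp the count was 9 of 44, beside 0.375% of all genes. The part of gene length in the count was not tested.

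**Figure D3:**
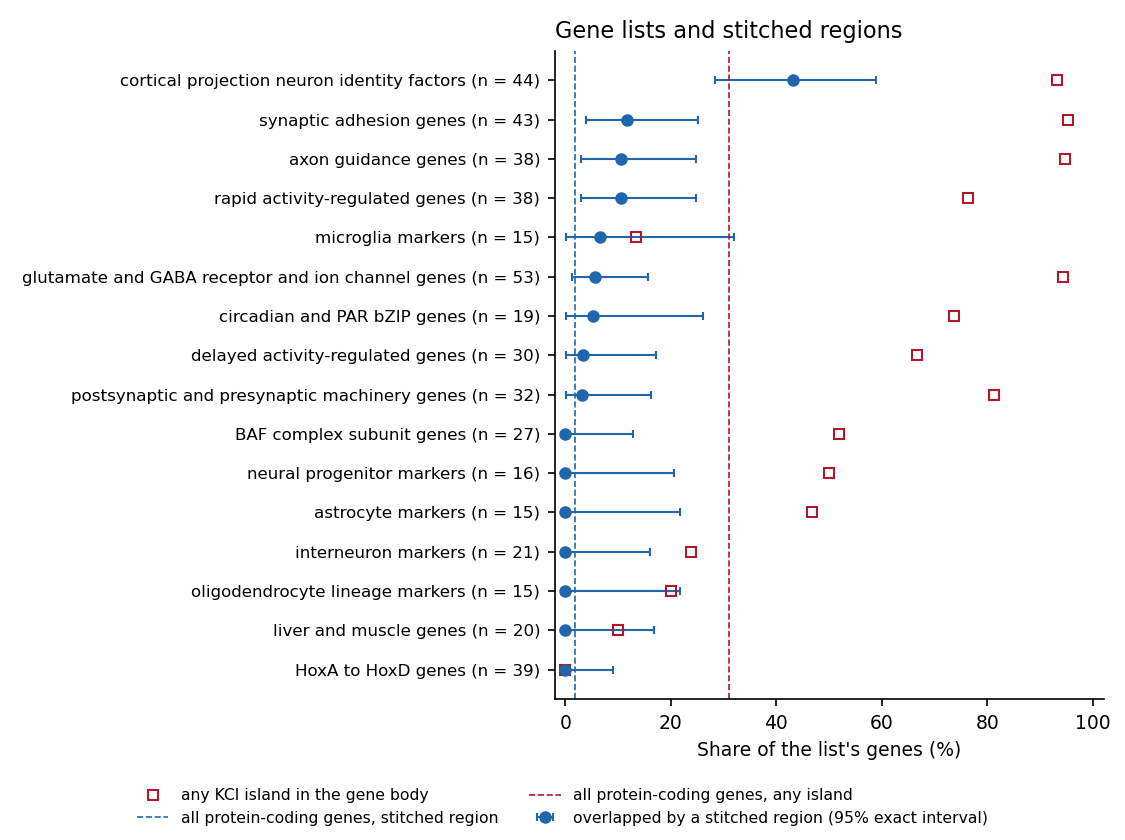
Share of each list's genes overlapped by a stitched region (blue points, with 95% exact intervals) and share with any KCl island in the gene body (red squares), in percent of the genes of the list (n in brackets). Dashed lines give the same shares over all protein-coding genes, 1.81% and 31.1%; cortical factors lie at 43.2%, and each other list at 11.6% or below.

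Of 43 synaptic adhesion genes, which are long (median 424 kb), 5 lay under a region (11.6%, 3.89 to 25.1), beside 1.81% of all genes. An island of any kind was in the body of 95.3% of them, beside 31.1% of all genes. Of all genes from 200 to 500 kb, 9.44% lay under a region, and of those above 500 kb 20.7%. The part of gene length in the counts of this paragraph was not tested. Cadm2, a cell adhesion molecule of axons and synapses, had 2 regions with 380 IP beside 87 control reads (2.74-fold) and 311 beside 107 (1.83-fold). Nlgn1, a postsynaptic neuroligin, had 264 beside 44 reads (3.77-fold, 2.73 to 5.31) in 4 islands at chr3:25768201-25778800, the highest fold of the listed genes. Nrxn3, a presynaptic neurexin, had 306 beside 70 reads (2.75-fold), Tenm3 256 beside 77 (2.09-fold) and Cntnap2 226 beside 77 (1.84-fold). Among 53 receptor and ion channel genes 3 were under a region (5.66%, 1.18 to 15.7), Kcnq5 (3.39-fold), Kcnip4 (2.52-fold) and Gabrb1 (2.19-fold), and 94.3% had an island in the body. The median length of these 53 genes was 302 kb. The scaffold gene Dlg2, whose region holds an island among the 1% with the most control reads per kb, was the 1 of 32 pre- and postsynaptic machinery genes (1.92-fold). Axon guidance gave 4 of 38 (10.5%, 2.94 to 24.8), Rgma, Epha4, Nrcam and Sema4d, with folds of 1.65, 1.74, 2.49 and 1.92.

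Rapidly induced activity-regulated genes gave 4 of 38 (10.5%, 2.94 to 24.8), beside 1.81% of all genes, and 76.3% had an island in the body. Npas4, the gene of an activity-dependent transcription factor of neurons, lay in a region of 4 islands at chr19:4982001-5002400 with 330 IP and 80 control reads (2.59-fold, 2.02 to 3.35). The island over the Npas4 start printed above (chr19:4989201-4991600) had 73 IP and 20 control reads, 2.29-fold (1.38 to 3.97). The annotated Npas4 gene runs from 4984353 to 5003439, so that the region lies across almost all of it. The strongest of its islands by fold, at chr19:5001401-5002400, had 43 IP and 8 control reads (3.38-fold, 1.57 to 8.31).

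Junb, an AP-1 subunit gene, lay in a region named for its neighbour Hook2 at chr8:84969001-84992200 with 5 islands, 366 IP and 134 control reads (1.72-fold, 1.40 to 2.11). The nuclear receptor gene Nr4a1 had 4 islands at chr15:101240801-101267800 with 261 IP and 86 control reads (1.91-fold). Egr1, a zinc-finger factor gene on chromosome 18, had 3 islands with 235 IP and 81 control reads (1.82-fold). The intervals of the regions at Junb, Nr4a1 and Egr1 overlapped that of Npas4, by little at Junb. Of 30 delayed activity-regulated genes, only Dclk1, a microtubule-binding kinase gene, was under a region (191 beside 49 reads, 2.45-fold, chr3:55446401-55465800).

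Of 82 markers of other cell types 1 was under a region (1.22%), near the 1.81% of all genes. No interneuron (0 of 21), astrocyte (0 of 15), oligodendrocyte lineage (0 of 15) or neural progenitor (0 of 16) marker was, and an island of any kind was in the body of 5, 7, 3 and 8 of them. With lists this short, the exact interval of 0 of 15 reaches 21.8%. The median gene lengths of these lists, in the same order, were 6.8, 9.9, 17.0 and 8.9 kb. That of the cortical factors was 92.1 kb and that of all genes 17.2 kb. The part of gene length in these counts was not tested. One of 15 microglia markers, Fcgr3, was (488 beside 206 reads, 1.49-fold), in a region that reaches a gene end. Liver and muscle genes gave 0 of 20, Hox genes 0 of 39 with no island of any kind in a body, and BAF subunit genes 0 of 27, with an island in 51.9% of bodies. Of circadian and PAR bZIP genes 1 of 19 was, Cry1 (2.05-fold).

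Most regions lay in or at genes. A protein-coding gene was overlapped by 324 regions (70.3%, 65.9 to 74.4), beside 63.7% of pairs and 57.2% of lone islands, which are shorter. Of the 461, 166 lay inside a gene (36.0%), 158 reached a gene end (34.3%), 35 lay outside genes within 50 kb (7.59%) and 102 farther away (22.1%). Per island, stitched islands lay inside genes more often than lone islands, 46.6% (44.1 to 49.2) beside 32.9%, with 40.8% (39.3 to 42.2) in pairs. Stitched islands were less often within 2 kb of a gene end, 16.1% (14.3 to 18.0), beside 25.2% of lone islands and 23.2% of all KCl islands. Islands in pairs had 18.7% (17.6 to 19.9) there, an interval that overlapped that of stitched islands. As whole regions, 162 of 461 (35.1%) held an island at a gene end. Islands of stitched regions marked an end of 1.2% of all genes, and any KCl island an end of 25.2%.

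Folds differed between the positions. The median fold of regions was 2.06 where they reached a gene end, 2.37 inside genes, 2.54 outside genes within 50 kb and 2.74 farther away. Lone islands kept the same order between ends and distant sites, with 1.82 at gene ends and 2.94 beyond 50 kb. The stitched islands in those positions had 1.88 and 2.74. Control reads per kb of island were 10.1 in regions that reached a gene end and 9.11 in distant ones, and IP reads per kb were 32.1 and 37.8. The part of control density in the difference was not tested.

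The same pattern held within regions. An end was either end of the whole gene, so annotated starts inside a gene, as in Npas4, counted as away from one. In 149 regions with islands both at a gene end and away from one, the end islands had the lower summed fold in 95 (63.8%), the median folds being 1.91 at ends and 2.30 elsewhere. End islands had 30.3 IP reads per kb, beside 35.4, and 10 control reads per kb, beside 9.81. They were also wider, with median widths of 2800 bp and 1800 bp, and wider in 104 of the 149. The strongest island by excess was an end island in 85 of the 162 regions that had one (52.5%), and end islands made up 45.6% of the islands of those regions.

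**Figure D4:**
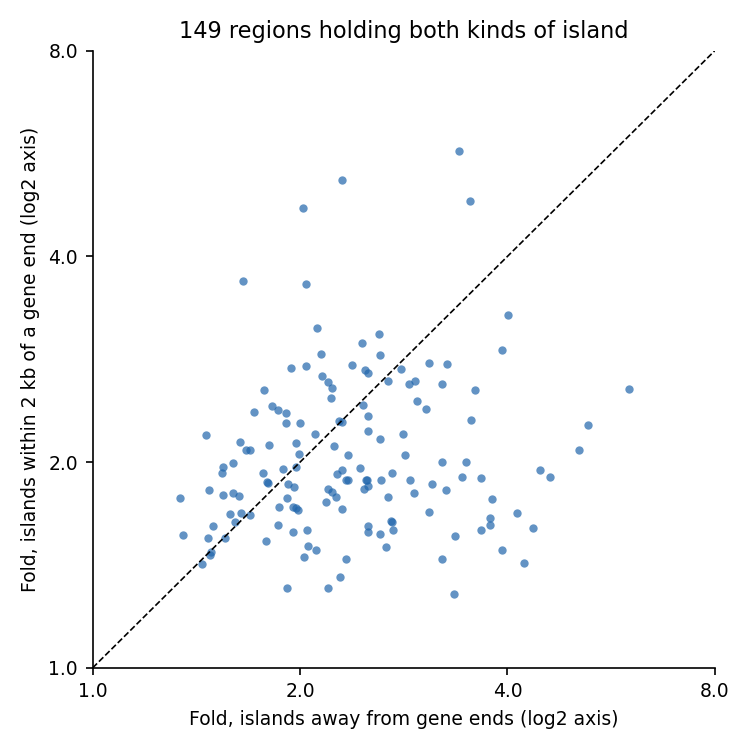
Fold over control of islands at a gene end against that of the other islands of the same region, in the 149 regions of the KCl library that hold both, with both axes on a log2 scale and equality as a dashed line. Most points (95) lie on the side where the end islands have the lower fold.

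Long genes held many of the regions. The 396 overlapped genes had a median length of 98.1 kb, beside 44.3 kb for other genes with an island in the body and 17.2 kb for all. Under a region lay 0.827% of genes up to 20 kb, 2.19% of those from 50 to 100 kb, 9.44% of those from 200 to 500 kb and 20.7% (47 of 227) of those above 500 kb. Longer genes have more room for islands: the mean number in the body was 0.173 in the shortest class and 9.44 in the longest. In 19 genes, all above 100 kb, 2 or more regions lay under the same gene, and 5 held 3: Limch1, Magi2, Dok5, Fbxl17 and Pam.

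**Figure D5:**
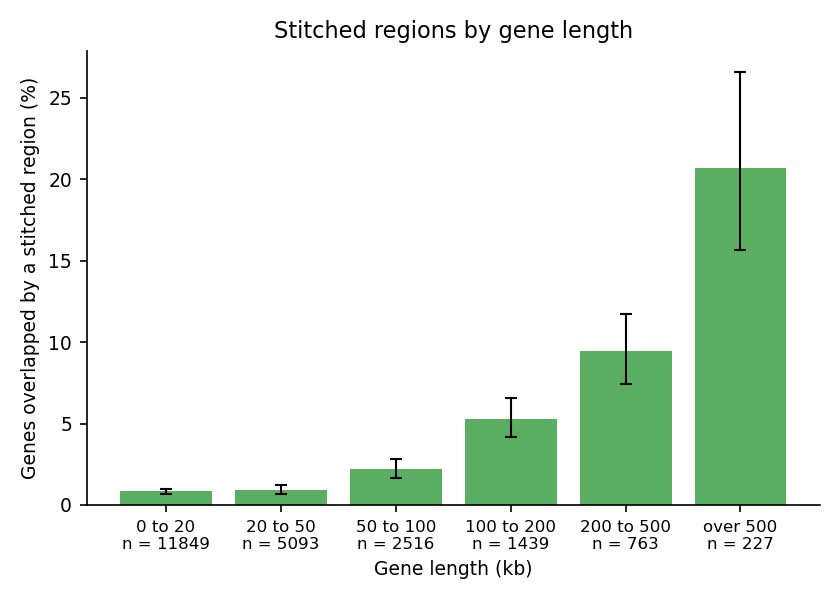
Percent of protein-coding genes overlapped by a stitched region in classes of gene length (kb), as bars from 0 with 95% exact intervals as lines and the number of genes under each class. The share is 0.827% in the shortest class and 20.7% in the longest.

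Of the 5 highest folds among regions of at least 200 IP reads, 4 lay outside protein-coding genes. The first lay 533 kb away from Gbe1, its nearest gene (chr16:71102601-71121600), with 240 IP and 24 control reads and a fold of 6.28 (4.12 to 9.996). Its 3 islands had folds of 4.65, 6.75 and 6.49. The next lay 595 kb from Pcdh7 (chr5:57101801-57121200, 291 beside 37 reads, 4.94-fold), 62.2 kb from Zfp42 (chr8:43369201-43378600, 226 beside 31, 4.58-fold) and 258 kb from 2610001J05Rik (chr6:14130001-14151000, 214 beside 32, 4.20-fold). The fifth, inside the phosphodiesterase gene Pde4d (chr13:109481201-109500800), had 247 beside 38 reads (4.08-fold, 2.89 to 5.91). A fold of 9.74 (4.79 to 23.0) near Ube2cbp was higher but rested on 124 IP and 8 control reads, and was named after its value was seen. Control reads per kb were 6.67 in the region near Gbe1 and 2.67 in the one near Ube2cbp, beside a median of 9.42. The part of low control counts in these folds was not tested.

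Distance from genes did not mean lack of annotation in every case. Of 137 regions with no protein-coding gene, 41 overlapped a long non-coding RNA gene. Of the 137, 78 were more than 100 kb, and 21 more than 500 kb, from any protein-coding gene end. Other large regions named by the rule were at Acvr1c, a TGF-β family receptor gene (6 islands, 387 beside 67 reads, 3.63-fold), and Fap (6 islands, 407 beside 97, 2.64-fold). Near Hivep2, 27.2 kb from its end, 7 islands had 439 beside 139 reads (1.98-fold). Near Arl4a and Kcna4, at 318 kb and 696 kb, 6 islands each had 378 beside 76 (3.12-fold) and 321 beside 65 (3.10-fold).

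Few of the regions were found in the basal list, which holds 711 islands. A basal island overlapped an island of 34 regions (7.38%, 5.16 to 10.2), beside 4.73% of pairs, 2.04% of lone islands and 2.51% of all units. Larger units have more bases to overlap. Per island the share was 2.37% (1.67 to 3.25) in regions, 2.43% in pairs and 2.04% in lone islands, beside 2.15% of all KCl islands, so stitched islands overlapped the basal list about as often as any other. In 31 of the 34 regions a single island was involved. The basal and KCl lists differ in length and in control, and with 1 library each a difference in binding and in the yield of the libraries cannot be told apart.

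The basal islands in the regions were modest. The 38 of them had a median basal fold of 1.95, beside 1.80 for the whole basal list, and ran from 1.25 to 6.63. Under the Mir9-2 region beside Mef2c lay 3 basal islands with 110 IP beside 77 control reads (1.62-fold, 1.20 to 2.20), 58 beside 41 (1.61-fold) and 47 beside 29 (1.84-fold). The last, at chr13:83738601-83740000, covered the Mir9-2 hairpin. Those 3 also formed a stitched region of the basal list itself, with 215 beside 147 reads and a fold of 1.66 (1.34 to 2.06). Both Gpm6a regions held 1 basal island each (2.08-fold and 1.75-fold), and Tcf4 1 (1.86-fold). Of the 21 cortical factor regions, that of Tcf4 was the only one with a basal overlap (4.76%), beside 7.5% of the other 440 regions. At Junb a basal island with 68 beside 45 reads (1.72-fold, 1.16 to 2.56) lay under the region. The regions of Npas4, Nr4a1 and Egr1 overlapped none, like most regions, since 7.38% of all 461 had an overlap. The Nlgn1 region held a basal island of 2.91-fold (1.60 to 5.56), and the highest basal fold (35 beside 6 reads, 6.63-fold, 2.76 to 19.3) was in a region outside genes, 88.6 kb from Plxnc1, its nearest protein-coding gene. The Btbd9 region had the lowest KCl fold of all (638 beside 279 reads, 1.44-fold) and held 2 basal islands, of 1.25-fold and 1.48-fold.

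Promoters under stitched islands were rich in CpG. RefSeq promoter sequences were at hand for 17492 of the 21887 genes (79.9%), 21263 promoters in all, and 212 of them, of 163 genes in 126 regions, were overlapped by a stitched island. They held a median of 21.5 CpG in 300 bases, beside 25 in promoters under other KCl islands, 8 in promoters with no KCl island and 13 in all. The motifs named beside the sequences above were searched on both strands, together with the CRE core (TGACG), which every full CRE also holds.

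The CRE core was in 30.7% (24.5 to 37.3) of the 212 promoters, beside 33.6% under other islands, 20.8% without an island and 23.6% of all promoters. The full CRE was in 7 of them (3.30%), beside 3.55% under other islands and 2.23% of all. The AP-1 site was in 5.66% (2.96 to 9.68), beside 3.93% under other islands and 6.99% of all. The E box was in 15.1% (10.6 to 20.6), beside 9.69% under other islands and 14.6% of all. The ETS site was in 10.4%, beside 13.9% and 11.6%, and the CArG box, the serum response element, in 2 of 212 (0.943%), beside 1.39% and 1.52%. For each motif except the CRE core, the interval over the 212 promoters held the share of all promoters. Beside promoters under other islands the outcome differed: the CRE core interval held their 33.6%, and only the E box interval left out theirs, 9.69%. The intervals count each promoter as separate, although some are starts of the same gene, as with the 4 of Zeb2. A match is a match of letters only. Among promoters printed above, the Neurod2 start with its E box lay under an island of 71 IP beside 17 control reads (2.62-fold, 1.53 to 4.75). The Pou3f3 start with its ETS site lay under one of 315 beside 105 (1.88-fold). The Tubb2a start with its CRE lay under one of 89 beside 30 (1.86-fold). The printed start inside Dclk1 lay under one of 50 beside 12 (2.62-fold), in a region 73.3 kb from the nearest end of that gene. Zeb2 had 4 annotated promoters at an island of 214 beside 85 (1.58-fold). The printed one, with a pair of AP-1 matches, overlaps that island while its start lies just outside, and the other 3 held none of the words marked in the sequences above.

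Regions were found on every autosome and on neither sex chromosome. Chromosome 3 had the most, 48, and the share of a chromosome's islands that were stitched ran from 4.53% on chromosome 17 to 11.4% on chromosome 13. None of the 227 islands on the X chromosome was in a region, a share with an exact upper bound of 1.61%. The X had 1.37 islands per Mb, while the autosomes had between 6.55 and 9.96, and its islands had 7.23 control reads per kb, beside 9.67 over all. The part of the control density and of the number of islands in the absence of regions was not tested.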

How the data were processed

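BRG1/BRM ChIP-seq was given for KCl-treated and basal mouse cortical neurons, 1 IP and 1 input library each. Groups came from the sample titles. Per the submitters' processing notes, BWA (version not given in the sources used here), SICER 1.0 and mm10 (GRCm38) were used. The names of the lists state 200 bp windows, 600 bp gaps, FDR 0.01 and an abbreviation of unsettled meaning. Islands were called per IP library against a control; which input that was is not given in the sources used here.

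The authors deposited, per island, unnormalized counts of IP and control reads, a p-value with its FDR, and a fold. That deposited fold is the ratio of both counts over a library constant, 1.59 for KCl and 0.880 for basal. Library totals are not in the lists, so depth is known only within islands. Counting at 0 control reads used a floor of 3 reads.

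Islands were stitched with own code, which gave the same 17664 units as bedtools 2.31.1 and was tested on simulated data. Reads were summed over the islands of a region. The interval of a fold is the exact binomial interval of IP among IP and control reads, divided by the constant, and shares have 95% Clopper-Pearson intervals (scipy 1.17.1). Without molecular identifiers both cover counting error only. Neither takes into account that islands were called for being enriched. Genes are the 21887 protein-coding genes of RefSeq GRCm38.p6, and that gene table gives no exons, so exon, intron and UTR were not told apart. A gene end is within 2 kb of either end. With 1 library per condition no test was made.

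The members and lists were chosen with earlier results of these data known. Named regions are the first 10 by islands, by IP excess and by basal overlap, the first 5 by fold (200 IP reads or more) and per position, each region at an activity-regulated gene, and up to 4 per other list. The names given for whole lists, the miR-9 loci and the genes with 3 regions fall outside this rule; their values were known when they were picked. Coordinates and sequences of chromosome 18, and one region that the rule names, are not reported here. Alternatives changed the gap, the minimum of islands, the FDR, the fold, the gene-end window and the overlap.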

Additional observations from a re-analysis of the deposited data

How the results depend on the processing

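No paired analysis was possible because each condition has 1 library, and for the same reason no replicate could be left out. Of 77 recomputed main values 35 moved little and 42 moved by more than 1.5 times or outside their interval. The gap and the minimum of islands set the number of regions by construction.

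With a gap of 5000 bp there were 112 regions with 1.72% of islands, a median fold of 2.15, 65.2% over a gene and 16 listed genes. With 8000 bp there were 251 regions with 3.93% of islands, and with 20000 bp 876 regions with 14.7% and 70 listed genes. A minimum of 2 islands gave 2661 regions with 28.4% of islands, 64.9% over a gene and 131 listed genes. A minimum of 4 gave 120 regions with 2.58% of islands, a median fold of 2.23, 77.5% over a gene and 15 listed genes. A minimum of 5 gave 35 regions with 0.954% of islands, a median fold of 2.02, 45.7% with a gene-end island, 20% with a basal overlap, 82.9% over a gene and 8 listed genes. With gaps of 5000, 8000 and 20000 bp, 0.375%, 1.00% and 3.66% of all protein-coding genes lay under a region. With minimums of 2, 4 and 5 islands that share was 7.79%, 0.603% and 0.265%, beside 1.81% under the main rule.

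Islands with an FDR of at most 1e-05 gave 260 regions with 5.33% of islands, a median fold of 2.69, 28.1% with a gene-end island, 65.0% over a gene and 24 listed genes. Islands with a fold of at least 2 gave 174 regions with 4.08% of islands, a median fold of 3.03, 17.2% with a gene-end island, 57.5% over a gene and 8 listed genes. Under these FDR and fold limits, 0.918% and 0.466% of all protein-coding genes lay under a region. Leaving out each region's strongest island gave a median fold of 2.16. Basal islands with an FDR of at most 1e-05 overlapped 2.60% of regions. Asking for an island at a gene end left 24 listed genes, beside 1.2% of all genes. Counting long non-coding RNA genes too, an alternative chosen after seeing the data, put 79.2% of regions over a gene.

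Single lists moved in 69 of 192 recomputed counts. The cortical factors ran from 3 to 30 of 44, the synaptic adhesion genes from 1 to 27 of 43 and the rapid activity-regulated genes from 1 to 13 of 38. The highest counts came with a minimum of 2 islands, where 7.79% of all genes lay under a region. The 3 cortical factors came with a fold of at least 2, beside 0.466% of all genes. A minimum of 5 islands gave 1 adhesion and 1 rapid gene, beside 0.265% of all genes. Depth limits the single island: one of the region near Gbe1, with 31 IP and 3 control reads, had a fold of 6.49 with an interval from 2.02 to 33.2.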

Other observations

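The basal list, stitched in the same way, gave 10 regions of at least 3 islands among 663 units. Of these, 2 overlapped KCl regions, the one at Mir9-2 beside Mef2c and one at Btbd9 and Glo1 (307 IP beside 260 control reads, 1.34-fold, 1.13 to 1.59). The other 8 overlapped or lay nearest to A530032D15Rik, Prl2c3 (2 regions, 1 of them 77108 bp away), Gm14393, Zfp970 (116207 bp away), Chil4, Speer4d and Klra7. The largest were at Speer4d, with 4423 IP and 4515 control reads and a fold of 1.11 (1.07 to 1.16), and at A530032D15Rik, with 3201 and 3351 reads and a fold of 1.09 (1.03 to 1.14). Those 10 basal regions held 9926 IP and 9702 control reads. A KCl island lay in the span of 1 of the 8, at Prl2c3.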
